A study of Mus musculus with 6 samples.

Results

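Genes of 31 sensory transduction channels were examined for open chromatin and an active histone mark in E11.5 mouse embryos, in neurons sorted from dorsal root ganglia. They encode the Piezo channels, the acid-sensing ion channels (ASICs), most transient receptor potential (TRP) channels of the A, V, M and C families, and the first members of the transmembrane channel-like (Tmc) family. Members were taken by symbol from the protein-coding genes of RefSeq GRCm38, where all 31 were found among 21887 genes. Peaks of open chromatin and of the mark were counted within 1 kb of either annotated end of a gene, inside it (midpoint in the gene, over 1 kb from every gene end), and at distal elements, which are likewise over 1 kb from any gene end and are assigned to the nearest end within 100 kb. A peak inside a gene can thus also be a distal element, of that gene or of another. The channels were grouped by known role or family. The classes are 5 touch and mechanical channels (Piezo1, Piezo2, Tmc1, Tmc2 and Tmc3), 9 heat, cold and irritant channels (Trpa1, Trpv1, Trpv2, Trpv3, Trpv4, Trpm2, Trpm3, Trpm8 and Trpc5), 5 members of the acid-sensing family (Asic1 to Asic5) and 12 other TRP channels. The class called touch below takes in the Tmc genes by family, and a role of theirs in touch was not tested.

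The neurons came from Runx3-BAC-GFP-CB6 transgenic mice, in which a Runx3 bacterial artificial chromosome drives GFP, and every sample carried this transgene. GFP-positive cells were sorted after dissociation and fixation and are labelled as TrkC proprioceptive neurons, the lineage that senses muscle stretch. Of 6 samples, 2 were profiled by ATAC-seq, which maps open chromatin, 2 by ChIP-seq of H3K27ac, the acetylation of histone H3 found at active regulatory elements, and 2 were input DNA, each from 50000 cells. The files used here are 1 consensus list of peaks for ATAC and 1 for H3K27ac, with positions and no signal. The lists carry no values per replicate, so replicate error is not known, the depth of each sample is unknown, and no test is made. The labels do not say whether replicates came from separate litters. A missing peak means only that none is in the list. A mark in fewer cells and a weaker mark in every cell cannot be told apart.

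Sensory endings turn force, temperature, acid or chemicals into current through channels of this kind. Piezo2 is the main force-gated channel of touch and of proprioceptors. Trpv1 responds to heat and capsaicin, Trpm8 to cold and menthol, and Trpa1 to irritants, and these 3 are best known from nociceptors and thermoreceptors. Several ASICs, though not every member of the family, open on acidification of the tissue. The canonical TRPC channels act below receptors that signal through phospholipase C, and Tmc1 and Tmc2 belong to the transduction channel of inner ear hair cells.

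The labelled cell type was checked against markers of the sorted cells and of their neighbours. The ATAC list held 43652 peaks on chromosomes 1 to 19, X and Y and the H3K27ac list 19924. All 7 sensory neuron genes (Pou4f1, Isl1 and Tubb3 among them) had both marks within 1 kb of an annotated end. Of 5 TrkC lineage genes, 3 had ATAC (Runx3, Etv1 and Whrn) and 2 H3K27ac there (Etv1 and Whrn), while Ntrk3 and Pvalb had neither there. Ntrk3, which encodes TrkC, was assigned 3 acetylated distal ATAC peaks and Runx3 9, and the transgene adds copies of the Runx3 region. Of 6 genes of glia and neural crest, 5 had H3K27ac at an end and 4 had ATAC. None of 5 endothelial, 4 blood or 5 spinal cord genes had H3K27ac at an end, while 2, 1 and 4 of them had ATAC. Of all protein-coding genes, 60.4% had ATAC and 49.3% H3K27ac at an end, and 15.4% were assigned an acetylated distal ATAC peak. The counts of TrkC lineage genes at ends were not above these shares. Away from ends, Pecam1 (endothelium) and Spi1 (blood) were each assigned 1 acetylated distal ATAC peak. Pecam1 and Ptprc (blood) each held 1 H3K27ac peak inside. The part of glia in the peaks of the channel genes was not tested.

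At gene ends, the shares of channel genes with each mark lay below those of all genes, by more for H3K27ac than for ATAC, and neither difference was tested. An ATAC peak lay within 1 kb of an annotated end of 15 of the 31 genes (48.4%), against 60.4% of all protein-coding genes. An H3K27ac peak did so at 7 (22.6%), against 49.3% of all genes. Both marks were at the ends of 6 genes (19.4%): Piezo1, Piezo2, Asic1, Trpm4, Trpm7 and Trpc1, against 47.8% of all genes. Among the 15 genes open at an end, 6 (40.0%) were acetylated there, against 79.1% of all genes open at an end. Counted over ends, gene bodies and assigned distal elements together, 26 members (83.9%) had some ATAC peak and 15 (48.4%) some H3K27ac peak, against 75.3% and 57.8% of all genes. Tmc2, Trpv1, Asic5 and Trpv5 had no peak of either list in any of these places.

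**Figure D1:**
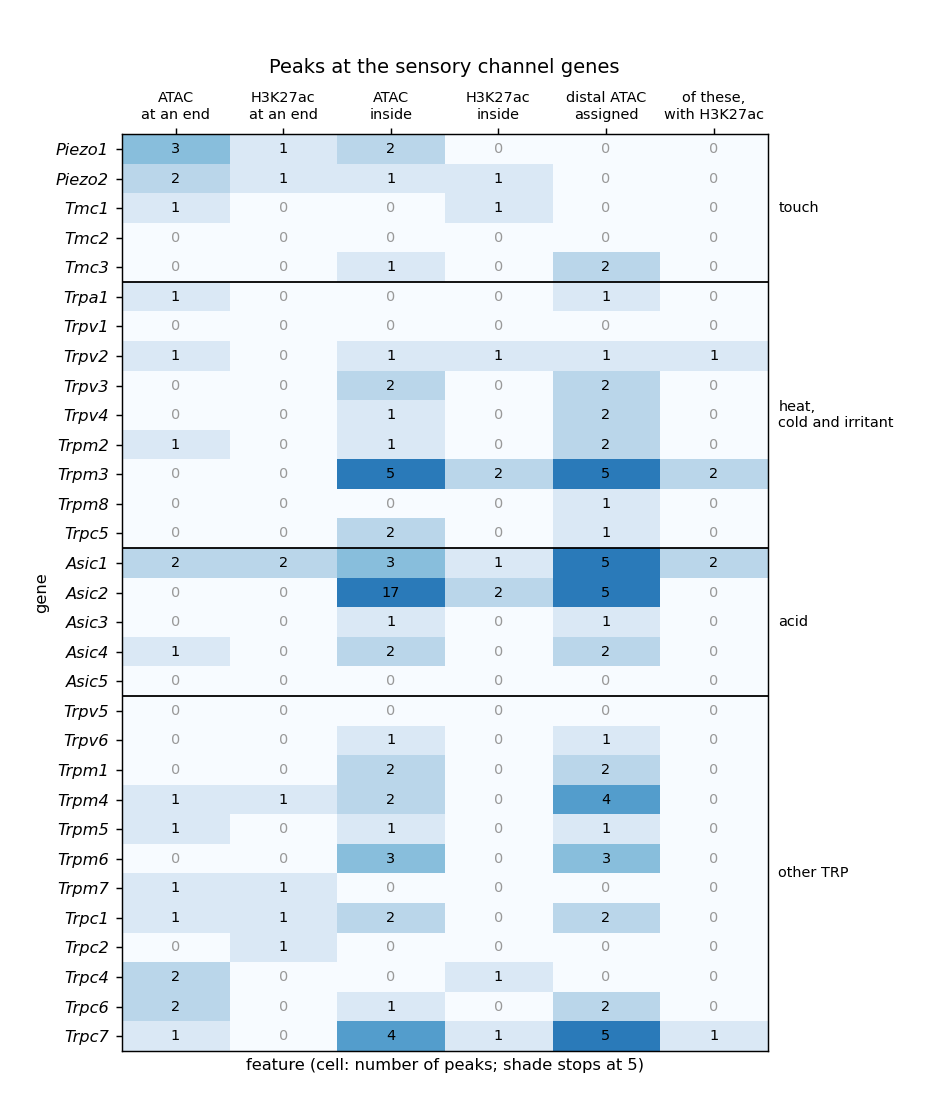
Number of peaks at each of the 31 genes (rows, grouped by class) for 6 kinds of position (columns); the printed number is the count and the shade stops at 5 peaks. H3K27ac at an end is filled in 7 rows, none of them in the heat, cold and irritant class, and Asic2 holds 17 ATAC peaks inside the gene.

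The median widths of peaks at these genes were below those of their lists, though some single peaks were wide. The 21 ATAC peaks at member ends had a median width of 209 bp, against 365 bp for all 15112 ATAC peaks at gene ends. The 8 H3K27ac peaks at member ends had a median of 661 bp (311 to 1633 bp), against 1248 bp for all 9523 at gene ends. Away from ends, the medians were 140 bp over 71 ATAC peaks and 521 bp over 19 H3K27ac peaks, against 174 and 822 bp in the whole lists. The upper quartile of member H3K27ac peaks away from ends, 1705 bp, was above the 1427 bp of the whole list. Among the wide peaks were the H3K27ac peaks inside Asic2 (percentiles 95.9 and 86.9) and the ATAC peaks at ends of Trpc1 (87.7), Piezo2 (84.9) and Trpm7 (83.9). Of 92 distinct ATAC peaks counted for members, 20 (21.7%) shared bases with an H3K27ac peak, against 39.6% of the whole list. Of 27 H3K27ac peaks, 15 (55.6%) shared bases with an ATAC peak, against 68.9%.

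Among the touch channels, both Piezo genes carried open and acetylated ends. Piezo1, which encodes a force-gated channel of many tissues, had 3 ATAC peaks at its start on chromosome 8, of 209, 181 and 155 bp, spread from position -462 to position 528 bp relative to the RefSeq start. The middle one covered the start and lay in an H3K27ac peak of 486 bp (chr8:122551022-122551507), narrower than most acetylated gene ends (percentile 9.05 of widths there). The gene held 2 more ATAC peaks inside, centred 50268 and 53193 bp after the start, without H3K27ac. The other end of Piezo1 lies within 2 kb of an end of Ctu2 and had no peak.

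Piezo2, the touch and proprioception channel, spans 377504 bp on chromosome 18. At its upper end it had ATAC peaks of 613 and 183 bp, both sharing bases with an H3K27ac peak of 695 bp (chr18:63386422-63387116; percentile 19.3), which stops 600 bp from the annotated end. Inside the gene lay a further H3K27ac peak of 2076 bp (chr18:63261903-63263978), 123738 bp from the nearer end. It was wider than most H3K27ac peaks away from ends (percentile 87.9) and overlapped no ATAC peak. The only ATAC peak in the body, of 112 bp, lay 134886 bp from the nearer end. With a window of 0.5 kb the acetylated end of Piezo2 is not counted.

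The Tmc genes showed little. Tmc1 had 1 ATAC peak of 122 bp at its upper end (percentile 4.25 of widths at ends), 82441 bp from the RefSeq start, and 1 H3K27ac peak of 222 bp inside the gene, neither overlapping the other mark. Tmc2 had no peak, and the nearest ATAC and H3K27ac peaks lay 8941 and 8293 bp from the gene. Tmc3 had 1 ATAC peak of 113 bp inside and 1 of 140 bp at 3734 bp from the gene, both without H3K27ac. The 4 H3K27ac peaks assigned to Tmc3 were 251 to 521 bp wide, lay 11888 to 93283 bp from its end and overlapped no ATAC peak.

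None of the 9 heat, cold and irritant genes had H3K27ac within 1 kb of an annotated end, and 3 had ATAC there. Trpa1 had an ATAC peak of 153 bp over its upper end (chr1:14918795-14918947), Trpm2 one of 208 bp over its start (chr10:77969763-77969970) and Trpv2 one of 129 bp at 920 bp from its end. Each was narrower than most ATAC peaks at gene ends (percentiles 9.9, 20.1 and 5.62). Trpm2 encodes a channel opened by warmth and oxidative stress, and Trpv2 one that responds to strong heat.

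Trpv1, Trpm8 and Trpa1, the best known sensors of this class, had no peak inside, and Trpa1 alone of them had one at an end. Trpv1 had no assigned peak, and the nearest ATAC and H3K27ac peaks lay 20310 and 34307 bp from the gene. Trpm8 had no peak at an end or inside, and its only assigned element was an ATAC peak of 136 bp at 12635 bp (chr1:88293965-88294100). Trpa1 was the nearest gene to an ATAC peak 61603 bp away and to 2 H3K27ac peaks without ATAC, 1512 and 1899 bp wide, at 52198 and 54879 bp. Trpv3, a warmth channel of skin that lies next to Trpv1, held 2 ATAC peaks inside, of 127 and 142 bp, and Trpv4, opened by warmth and swelling, held 1 of 141 bp. Trpc5, linked to cold in sensory neurons, held 2 ATAC peaks of 127 and 151 bp in 310854 bp. None of these peaks in Trpv3, Trpv4 and Trpc5 shared bases with H3K27ac.

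Trpv2 and Trpm3 carried H3K27ac inside the gene. At Trpv2 the peak was 1315 bp wide (chr11:62575707-62577021) and contained an ATAC peak of 221 bp, and it began 1221 bp from the annotated end, outside the window of 1 kb. RefSeq gives Trpv2 3 starts, and start 3 lies 80 bp before this peak. Trpm3, a heat-sensing channel of nociceptors that is also expressed outside the ganglion, spans 857614 bp with 2 RefSeq starts. The first start lay in an unacetylated ATAC peak of 631 bp (chr19:22138798-22139428), whose edge is 1001 bp from the annotated end. The second start lay in an ATAC peak of 459 bp (chr19:22447981-22448439) that overlapped an H3K27ac peak of 444 bp.

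**Figure D2:**
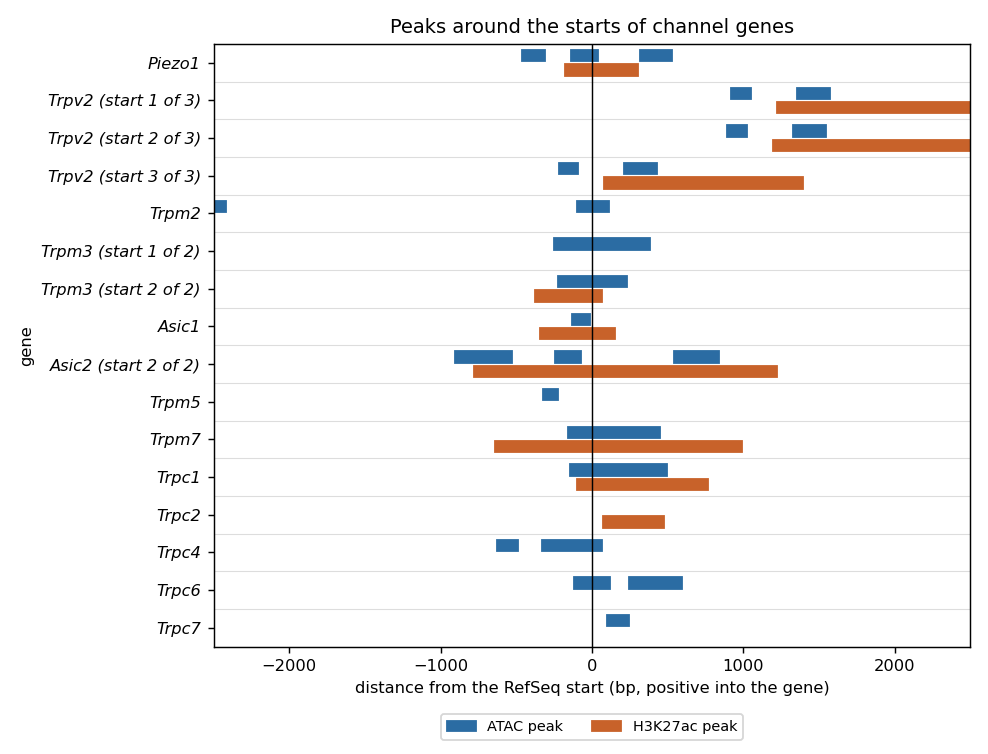
ATAC (blue) and H3K27ac (orange) peaks within 2500 bp of the RefSeq starts of members that have a peak within 1 kb (rows); the horizontal axis is the distance from the start in bp, positive into the gene. Trpm3 is acetylated at start 2 and not at start 1, and the H3K27ac peak of Trpv2 begins 80 bp after start 3.

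Of the acid-sensing genes, Asic1 and Asic2 held all the H3K27ac. Both are known to make variants with different first exons. Asic1 had acetylated ATAC peaks at both annotated ends. The one at the lower end was 282 bp wide in an H3K27ac peak of 627 bp (chr15:99670385-99671011). The one at the upper end, 347 bp, lies within 1 kb of an end of Smarcd1 as well. A further acetylated place was the RefSeq start inside the gene, where an ATAC peak of 117 bp lay 13 bp before the start in an H3K27ac peak of 493 bp (chr15:99691882-99692374). The last was a distal ATAC peak of 500 bp at 4912 bp from the gene, in an H3K27ac peak of 2071 bp.

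Asic2 is the longest member, with 1088234 bp. Neither end had a peak, and the body held 17 ATAC and 2 H3K27ac peaks. The first H3K27ac peak, of 2000 bp (chr11:81151681-81153680), covered the inner of 2 RefSeq starts and overlapped 3 ATAC peaks of 300, 168 and 373 bp. The outer start had its nearest ATAC peak 6349 bp away and its nearest H3K27ac peak 326825 bp away. The second H3K27ac peak, of 3192 bp (chr11:81369262-81372453; percentile 95.9), was centred at position -217954 bp relative to the inner start and overlapped 2 ATAC peaks. Of 227 genes spanning over 500 kb, 216 held fewer ATAC peaks inside than Asic2, and the median was 4. Asic2 held 1.56 ATAC peaks per 100 kb against a median of 0.467 in these genes, while its 0.184 H3K27ac peaks per 100 kb were close to the median of 0.192. Trpm3 was nearer to the middle, with 5 ATAC peaks or 0.583 per 100 kb.

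**Figure D3:**
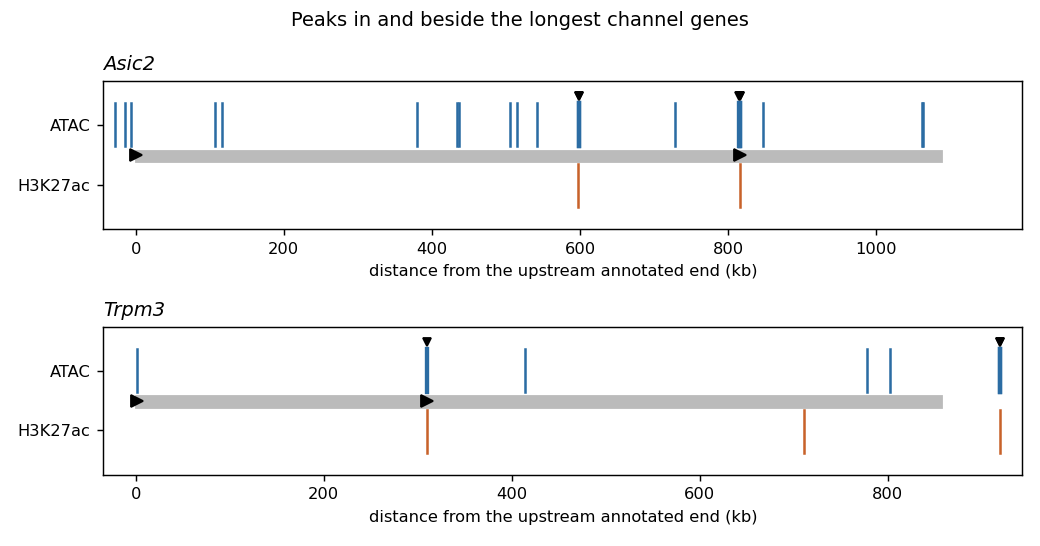
ATAC peaks (blue, above) and H3K27ac peaks (orange, below) along Asic2 and Trpm3, as distance in kb from the upstream annotated end; the grey bar is the gene, black triangles on it are RefSeq starts, and black triangles at the top mark ATAC peaks sharing bases with H3K27ac. In both genes an acetylated ATAC peak lies at the inner start and no acetylated one at the outer start.

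The other acid-sensing genes lacked H3K27ac. Asic3, the channel most tied to muscle and joint pain, had 1 ATAC peak of 212 bp, 2755 bp after its start. Asic4 had ATAC over an end (271 bp, chr1:75450360-75450630) and 2 ATAC peaks inside. Asic5 had none, and the nearest lay 4193 bp from the gene.

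Among the 12 other TRP genes, Trpm4, Trpm7 and Trpc1 had both marks at an end, and Trpc2 had H3K27ac alone. Trpm7, a channel with a kinase domain that carries magnesium and zinc, had an ATAC peak of 603 bp over its start in an H3K27ac peak of 1633 bp (chr2:126875269-126876901; percentile 69.0), the widest acetylated end of the 31 genes. Trpc1 had 645 bp of ATAC and 870 bp of H3K27ac (chr9:95749581-95750450) over its start. Trpm4, a calcium-activated cation channel, had 347 and 311 bp, respectively, beside its upper end, the narrowest acetylated end of the set (percentile 2.42). Trpc2, a pheromone-sensing channel of the vomeronasal organ, had H3K27ac of 405 bp without ATAC at 73 bp after its start. This peak also lies within 1 kb of an end of Xndc1, so it cannot be given to Trpc2 alone.

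The canonical TRPC genes Trpc4, Trpc6 and Trpc7 were open at their starts without H3K27ac. Trpc4 had ATAC peaks of 139 and 398 bp, Trpc6 of 238 and 354 bp and Trpc7 of 147 bp. The nearest H3K27ac peak lay 133537, 357329 and 20804 bp from these starts. Trpc7 also held 4 ATAC peaks inside, 1 of them overlapping an H3K27ac peak of 304 bp near the far end of the gene. Trpm5, the taste cell channel, had an ATAC peak of 104 bp at 222 bp before its start. Trpv5 had no peak, and Trpv6, the other epithelial calcium channel, had 1 ATAC peak inside. Trpm1, the channel of retinal bipolar cells, held 2 and Trpm6, the magnesium channel of gut and kidney, 3 ATAC peaks inside, all without H3K27ac.

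In the contrast that these genes were grouped for, the order of the classes for ATAC differed between annotated ends and RefSeq starts. The starts cover fewer genes. Heat, cold and irritant genes had the higher share at distal elements, and touch genes had the higher share for H3K27ac inside the gene. At ends, 3 of 5 touch genes (60.0%) and 3 of 9 heat, cold and irritant genes (33.3%) had ATAC, against 60.4% of all genes, and 2 of 5 (40.0%) and 0 of 9 had H3K27ac, against 49.3%. Both touch shares at ends lay below those of all genes. Inside the gene, 3 of 5 touch genes (60.0%) and 6 of 9 heat, cold and irritant genes (66.7%) held ATAC, against 31.2% of all genes. H3K27ac lay inside 2 of 5 (40.0%) and 2 of 9 (22.2%), against 14.7%. These shares inside are not matched for gene length. In any of the places counted, 4 of 5 (80.0%) and 3 of 9 (33.3%) had H3K27ac, against 57.8%. Distal ATAC peaks within 100 kb were assigned to 1 of 5 touch genes (Tmc3) and to 8 of 9 heat, cold and irritant genes (all but Trpv1), against 46.0% of all genes. Of those with H3K27ac, the counts were 0 of 5 and 2 of 9 (Trpv2 and Trpm3), against 15.4% of all genes. The peak counted for Trpv2 was centred 322 bp after a RefSeq start of the gene. The ATAC peaks inside Piezo1 lay nearer to an end of another gene, and the one inside Piezo2 lay over 100 kb from both of its ends. Neither gene was therefore counted for distal ATAC. The only assigned ATAC peaks of Trpv2, Trpv3 and Trpc5 also lie inside the gene, but were counted because its own ends are nearest. The differences between these classes were not tested. They rest on few genes. Counted from RefSeq starts, ATAC was found at 1 of 3 touch genes (33.3%) and 3 of 8 heat, cold and irritant genes (37.5%). This is the opposite order to that at annotated ends, but the shares are close and the genes differ. Piezo2, Tmc2 and Trpa1 have no start entry, and Piezo2 and Trpa1 were open at an end. H3K27ac was found within 1 kb of a start at 1 of 3 touch genes (Piezo1) and 2 of 8 heat, cold and irritant genes (Trpv2 and Trpm3). With the wider 50% of the H3K27ac list, no gene of either class was acetylated at an end.

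**Figure D4:**
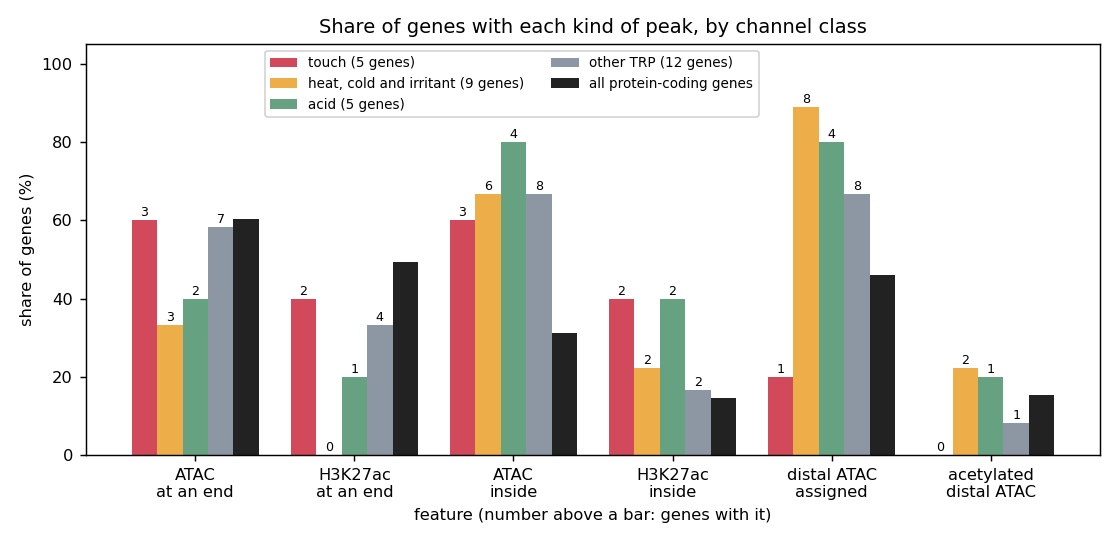
Share of genes (%) with each kind of peak in the touch, heat, cold and irritant, acid and other TRP classes and in all protein-coding genes; the number above a bar counts the genes. The heat, cold and irritant class has 0 of 9 for H3K27ac at an end and 8 of 9 for an assigned distal ATAC peak.

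Over all 31 genes, distal ATAC peaks were assigned to 21 (67.7%) and acetylated ones to 4 (12.9%), against 46.0% and 15.4% of all genes. The 4 were Trpv2 with 1, Trpm3 and Asic1 with 2 each and Trpc7 with 1. Distal here means away from annotated ends, and some of these peaks lie at RefSeq starts inside the gene. The peak of Trpv2 was centred 322 bp after start 3, and the 117 bp peak of Asic1 at position -71 bp relative to its start. The mean of acetylated distal peaks per gene was 0.194, against 0.249 over all genes. The pair at Trpm3 lies beyond its far end at 61556 and 62032 bp, and both overlap 1 H3K27ac peak of 631 bp. An H3K27ac peak away from ends, open or not, was assigned to 7 members (22.6%), against 20.6% of all genes. When peaks inside a gene were assigned to that gene, Asic2 had 5 acetylated distal peaks and Trpm3 had 3. Those of Asic2 include peaks centred at positions 690, -158 and -717 bp relative to its inner start. Those of Trpm3 include a peak centred 2 bp from its inner start.

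Inside the genes, ATAC was found in 21 members (67.7%) and H3K27ac in 8 (25.8%), against 31.2% and 14.7% of all genes. The members are long, with a median span of 46219 bp against 17169 bp, so the counts were also set beside genes of like size. Of 10 members spanning over 100 kb, 8 (80.0%) held ATAC and 6 (60.0%) H3K27ac inside, against 79.1% and 55.0% of all genes of that size. Of 18 members spanning 20 to 100 kb, 11 (61.1%) held ATAC inside, against 44.8%. These size ranges were chosen after the counts were seen. In Piezo2, Tmc1, Trpm3 and Trpc4, an H3K27ac peak inside the gene overlapped no ATAC peak, with widths of 2076, 222, 1180 and 190 bp.

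RefSeq starts were available for 26 of the 31 genes, as 31 windows of 300 bases, with 3 windows at Trpv2 and 2 each at Trpm1, Trpm3 and Asic2. Piezo2, Tmc2, Trpa1, Asic4 and Trpm4 had no entry. Within 1 kb of a start, 12 of 26 genes (46.2%) had ATAC and 8 (30.8%) H3K27ac, against 62.3% and 51.6% of 17492 protein-coding genes with an entry. The 8 were Piezo1, Trpv2, Trpm3, Asic1, Asic2, Trpm7, Trpc1 and Trpc2, of which Trpv2, Trpm3 and Asic2 were not counted at annotated ends. The windows themselves were overlapped by both marks in 6 cases, by ATAC alone in 6 and by neither in 19.

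The number of CpG dinucleotides per 300 bases had a median of 19 in the 6 windows with both marks, 15.5 in the 6 with ATAC alone and 3 in the 19 with neither. Over all 21263 windows the medians were 24, 17 and 3. Trpm7 with 35 and Piezo1 with 34 CpG were above the upper quartile of 31 of all windows with both marks, whereas Asic1 with 7, the inner start of Trpm3 with 10 and that of Asic2 with 16 were below the lower quartile of 18. Among windows without a peak, that of Trpv4 held 30 CpG. The windows of Trpm8, Tmc1, Trpv5 and Trpv6 held 1 CpG each, and that of Trpv1 held 4.

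**Figure D5:**
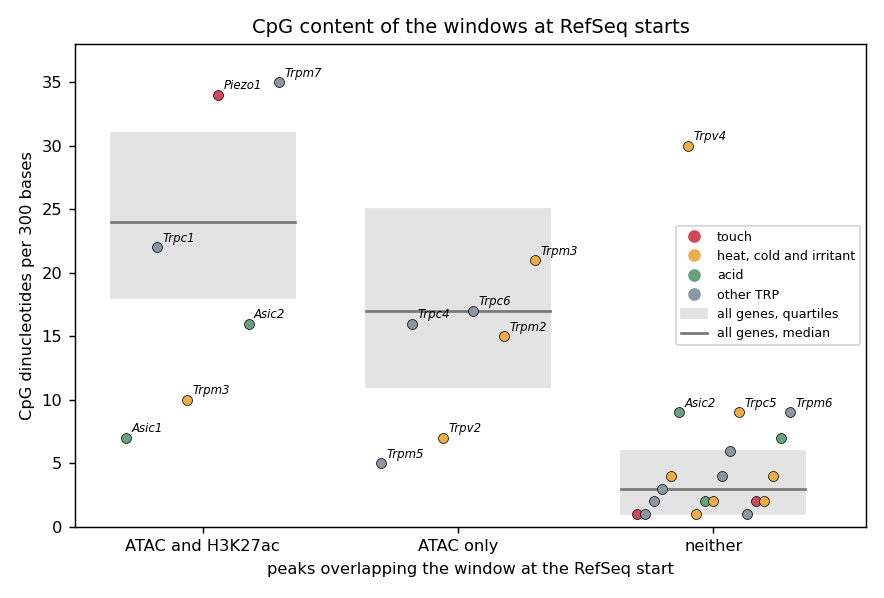
CpG dinucleotides per 300 bases (vertical axis) in the windows at RefSeq starts of members, by the peaks that overlap the window (horizontal axis); points are windows coloured by class, the grey box spans the quartiles of all protein-coding windows in that state and its line is their median. Trpv4 stands at 30 among the windows without a peak, where the median of members is 3.

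The 250 bases before the start are given for windows at which the marks differ, 5′ to 3′ on the gene's strand, from RefSeq GRCm38, with CpG dinucleotides in capitals. Piezo1 and Trpm7 are CpG-rich starts with both marks. Trpm3 is shown at its open, unacetylated outer start and its open, acetylated inner start, and Asic1 and Asic2 at their acetylated inner starts. Trpm2 and Trpv2 are shown at starts whose windows overlap ATAC alone. For Trpv2 an H3K27ac peak begins 80 bp after the start shown, just past the window. For Trpm2 the nearest H3K27ac peak lay 5402 bp from the start. Trpv1, chosen after its values were seen, is a start with no peak.
Piezo1 (chr8:122551330-122551579, minus strand): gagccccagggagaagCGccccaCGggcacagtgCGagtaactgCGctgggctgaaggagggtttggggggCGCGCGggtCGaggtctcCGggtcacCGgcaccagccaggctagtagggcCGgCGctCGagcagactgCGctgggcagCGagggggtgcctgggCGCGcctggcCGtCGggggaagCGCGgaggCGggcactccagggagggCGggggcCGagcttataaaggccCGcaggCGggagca
Trpm7 (chr2:126876262-126876511, minus strand): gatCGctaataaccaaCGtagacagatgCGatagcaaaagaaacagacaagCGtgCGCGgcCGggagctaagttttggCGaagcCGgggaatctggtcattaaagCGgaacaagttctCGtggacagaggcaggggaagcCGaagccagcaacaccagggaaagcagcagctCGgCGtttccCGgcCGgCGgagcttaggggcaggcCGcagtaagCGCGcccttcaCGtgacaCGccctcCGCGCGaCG
Trpm3 outer start (chr19:22138796-22139045, plus strand): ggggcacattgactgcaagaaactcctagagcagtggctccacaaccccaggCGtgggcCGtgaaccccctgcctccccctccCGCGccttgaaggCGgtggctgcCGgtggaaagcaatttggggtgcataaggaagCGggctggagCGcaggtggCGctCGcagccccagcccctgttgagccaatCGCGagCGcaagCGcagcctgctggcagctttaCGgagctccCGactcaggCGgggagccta
Trpm3 inner start (chr19:22447958-22448207, plus strand): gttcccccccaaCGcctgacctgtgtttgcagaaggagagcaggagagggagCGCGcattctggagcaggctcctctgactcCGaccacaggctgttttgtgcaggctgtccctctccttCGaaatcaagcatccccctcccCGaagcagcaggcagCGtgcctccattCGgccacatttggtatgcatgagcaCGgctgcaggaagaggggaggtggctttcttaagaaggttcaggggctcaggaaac
Asic1 inner start (chr15:99691974-99692223, plus strand): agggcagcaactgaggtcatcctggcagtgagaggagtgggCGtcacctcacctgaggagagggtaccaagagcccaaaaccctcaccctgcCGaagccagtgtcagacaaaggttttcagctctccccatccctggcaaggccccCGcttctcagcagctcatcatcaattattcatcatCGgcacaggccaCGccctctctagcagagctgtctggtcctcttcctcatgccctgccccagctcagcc
Asic2 inner start (chr11:81152904-81153153, minus strand): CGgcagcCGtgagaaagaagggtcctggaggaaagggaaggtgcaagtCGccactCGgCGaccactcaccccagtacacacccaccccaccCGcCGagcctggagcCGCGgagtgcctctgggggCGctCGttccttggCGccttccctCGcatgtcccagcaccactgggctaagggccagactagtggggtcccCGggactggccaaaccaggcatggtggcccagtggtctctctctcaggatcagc
Trpm2 (chr10:77969873-77970122, minus strand): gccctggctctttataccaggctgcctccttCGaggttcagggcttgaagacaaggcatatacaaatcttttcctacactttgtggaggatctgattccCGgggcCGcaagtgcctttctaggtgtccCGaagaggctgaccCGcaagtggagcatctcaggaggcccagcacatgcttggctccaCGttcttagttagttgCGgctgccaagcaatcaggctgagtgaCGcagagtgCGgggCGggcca
Trpv2 start 3 (chr11:62575377-62575626, plus strand): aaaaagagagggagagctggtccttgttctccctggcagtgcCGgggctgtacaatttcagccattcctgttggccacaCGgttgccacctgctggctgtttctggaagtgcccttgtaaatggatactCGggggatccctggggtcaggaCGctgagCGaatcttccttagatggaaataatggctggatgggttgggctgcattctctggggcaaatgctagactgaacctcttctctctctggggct
Trpv1 (chr11:73233899-73234148, plus strand): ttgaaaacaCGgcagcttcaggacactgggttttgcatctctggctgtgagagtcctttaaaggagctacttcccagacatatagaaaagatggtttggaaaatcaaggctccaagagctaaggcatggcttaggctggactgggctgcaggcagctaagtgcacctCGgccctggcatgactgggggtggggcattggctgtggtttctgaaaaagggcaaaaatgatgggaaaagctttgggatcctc

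In these stretches Piezo1 and Trpm7 held 26 CpG each, the outer and inner starts of Trpm3 17 and 9, Asic2 14, Trpm2 10, Asic1 and Trpv2 5 each and Trpv1 2. Of each 300-base window, ATAC peaks covered 181 bases at Piezo1, 206 at Trpm7, 298 and 277 at the outer and inner starts of Trpm3, 168 at Asic2, 148 at Trpm2, 129 at start 3 of Trpv2, 117 at Asic1 and 0 at Trpv1. H3K27ac covered all 300 bases at Trpm7, Asic1, Asic2 and the inner start of Trpm3, 228 at Piezo1 and none at Trpm2, the outer start of Trpm3, start 3 of Trpv2 and Trpv1.

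The 31 windows were searched on both strands for 6 short motifs. The Runx letters TGTGGT were in 7 windows (22.6%, against 15.0% of all), at Trpv1, Trpv2, Trpm3, Asic3, Trpm5 and Trpc2, where 2 overlapping windows of Trpv2 share the match. At Trpm3 the match was in the acetylated inner window. The E-box CANNTG was in 25 (80.6%, against 69.0%), the TATA box TATAAA in 8 (25.8%, against 12.6%), Piezo1 among them, and the Brn3 type letters ATTAAT in 2 (6.45%, against 4.04%), at Trpv3 and Asic3. The cyclic AMP response element TGACGTCA and the Ebf letters, TCCC and GGGA with any 2 bases between, were in none of the windows, against 2.23% and 0.959% of all. The motifs do not contain one another, but they can share bases. A match is a description of letters and not of binding.

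Partner genes of these channels, listed by role, are given beside the shares of all genes, 60.4% with ATAC and 49.3% with H3K27ac at an end. Of 17 mechanotransduction partners, 11 had ATAC and 7 H3K27ac there, among them Tmem120a, Tmem63a, Tmem63b and Stom, which encodes the membrane protein stomatin. Stoml3, the stomatin relative that tunes Piezo channels, had neither. Kcnk10, a mechanosensitive potassium channel, had no peak at an end but 4 acetylated distal peaks, and Tmem150c had 2. Of 15 nociceptor and thermoreceptor partners, 9 had ATAC and 6 H3K27ac at an end, among them Scn9a, a sodium channel of pain neurons, P2rx3, an ATP receptor, Pirt, a regulator of Trpv1, and Ano3. Gfra3, an artemin receptor, had ATAC without H3K27ac at an end and 4 acetylated distal peaks, and Scn10a had 2. Calca and Tac1, which encode the peptides CGRP and substance P, had ATAC alone at an end.

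Of 16 TRP and Tmc relatives, 11 had ATAC and 8 H3K27ac at an end. The acetylated genes were Pkd1, Pkd2l1, Mcoln1, Trpc4ap, Tmc4, Tmc7, Orai1 and Stim2. Mcoln1 encodes an intracellular TRP channel of lysosomes, and Orai1, Stim1 and Stim2 belong to the store-operated calcium entry pathway. Stim1 had no peak of either list at an end. Pkd2, the polycystin channel of cilia, had no peak at an end and 2 acetylated distal peaks.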

How the data were processed

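Per the submitters' processing notes, the tools named by the authors are cutadapt 1.18, bedtools, MACS2 and Bowtie2 2.3.5.1, with mm10. Each deposited consensus list gives peak positions only, in bp; how the consensus was formed is not given in the sources used here. Input DNA was not analysed here.

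Starts were counted from 1. Gene spans are those of RefSeq GRCm38 protein-coding genes, on the same assembly as mm10, and at least 1 shared bp counts as overlap. End, inside and distal peaks are as defined in the opening. RefSeq starts come from windows of 250 bases before to 50 after each start. Exons, introns and UTRs were not used. A width percentile ranks a peak among those of its list at, or away from, gene ends. Members, classes and lists were chosen with earlier results of these data known, so counts are set beside those of all genes and no p-value is given. All 31 members are accounted for; partner genes are named for having the most acetylated distal peaks, and others were picked with their values in view. The counting of peaks within 1 kb of gene ends was checked on simulated peaks against bedtools. The inside and distal classes were not checked in this way. Python 3.11.15, numpy 2.4.6 and pandas 2.3.3 were used.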

Additional observations from a re-analysis of the deposited data

How the results depend on the processing

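Of 49 recomputed counts of members over 10 results, 32 stayed within 1.5 times the value reported. These are counts and not shares, and some settings leave fewer genes, so a count can move while its share does not. With the wider 50% of each list, 8 members were open and 2 acetylated at an end, 8 held ATAC and 4 H3K27ac inside, and distal ATAC was assigned to 8 and acetylated distal ATAC to 2; of the touch genes 1 was open and 0 acetylated, and of the heat, cold and irritant genes 0 were open. In all genes, the same setting took the share open at an end from 60.4% to 54.3% and the share acetylated from 49.3% to 32.4%. Of the 31 members, those open at an end went from 15 to 8 and those acetylated from 7 to 2. Shares of all genes for inside and distal peaks under this setting are not given here. The lower counts inside genes and at distal elements therefore cannot be told apart from the general loss of peaks. With RefSeq starts in place of ends, 1 of 3 touch genes was open and 1 acetylated, and of 8 heat, cold and irritant genes 3 were open and 2 acetylated. With a window of 0.5 kb, 1 of 5 touch genes was acetylated, against 47.2% of all genes. With 2.5 kb, 1 of 9 heat, cold and irritant genes (Trpv2) was, against 52.1% of all genes. Where ends lie over 2 kb from other gene ends, 3 of 22 members and 1 of 4 touch genes were acetylated, against 39.4% of all such genes. With Trpv1, Trpm8 and Trpa1 alone, 1 of 3 was open, the same share as the 3 of 9 (33.3%) of the full class. With Piezo1 and Piezo2 alone as the touch class, 2 of 2 were open and 2 of 2 acetylated. Where counts moved, the cause was not tested, and some settings leave a smaller number of peaks or genes. No paired analysis was possible because each list is a consensus over both replicates, and leaving out a replicate was not run for the same reason. Depth is unknown, so the number of missed peaks cannot be given.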
